A study of Rattus norvegicus with 4 samples.

Results

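The nuclear DNA topoisomerase genes Top1, Top2a, Top2b, Top3a and Top3b, together with the clamp loader gene Rfc1 and the spindle protein gene Numa1, were followed at the mRNA level in the rat β-cell line INS-1 832/13 after silencing of Tbk1. With earlier results of these data known, these 7 genes were chosen by name because the study discusses proteins of this group. The text of the study names TOP1, TOP2A, TOP2B, RFC1 and NUMA1 but not TOP3A or TOP3B. All 7 genes were found among the 15172 genes listed. INS-1 832/13 is an insulin-secreting line derived from a rat insulinoma, so every sample comes from a single transformed clone. Cells were transfected for 36 h with a negative control non-targeting siRNA (siScramble, 2 samples) or with a pool of siRNAs against Tbk1 (siTbk1, 2 samples), and in both groups the samples are numbered 2 and 3. No source says whether the samples of a group came from separate cultures, so p-values measure only the spread between these samples, which may be technical.

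Topoisomerases cut DNA, let the strands turn or pass, and seal the break again, which removes the supercoils and tangles left by replication and transcription. Type I enzymes cut a single strand: TOP1 relaxes supercoils ahead of polymerases, whereas TOP3A and TOP3B pass single strands and work with RMI1 and BLM (TOP3A) or TDRD3 (TOP3B). Type II enzymes cut both strands: TOP2A separates sister chromatids and is made mainly in cycling cells, while TOP2B is also made in resting cells and acts in transcription. RFC1 is the large subunit of the complex that loads the sliding clamp PCNA onto DNA, and NUMA1 gathers microtubule ends at the spindle poles and anchors dynein at the cell cortex.

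After siTbk1 treatment, the mRNAs of the 7 genes moved in both directions. Top1, Top2a and Top2b rose by closely similar amounts, 1.30-fold each, and Rfc1 rose 1.44-fold. Top3a, Top3b and Numa1 fell, to 0.84, 0.82 and 0.71 of the control level, and the call for Top3a did not hold in every alternative fit. All 7 passed the test (adjusted p under 0.05 in the edgeR quasi-likelihood fit, with the Benjamini-Hochberg method over 13953 genes), 4 upward and 3 downward, and such calls were common in these cells, with 24.4% of all tested genes higher and 24.8% lower, 49.2% in all. None of the 7 changed by at least 1.5-fold in edgeR, DESeq2 or limma-voom, and glmTreat, which tests against that fold change, called 0, although all 7 had an unadjusted p under 0.05 in edgeR. Over all tested genes, 4.81% were higher and 6.18% lower at that limit.

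The promoters of the 4 genes that rose are shown because these genes changed in the same direction. Each is the RefSeq stretch from 250 bases before to 50 bases after the gene's start (build GRCr8, which is not the build of the count table), and promoters were found for all 7 genes. Capitals mark the CCAAT box (CCAAT, or ATTGG on the other strand), the CHR element (TTTGAA, or TTCAAA on the other strand) of many cell cycle genes, and the core of the cAMP response element (TGACGT, or ACGTCA on the other strand).

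Top2a (GRCr8 chr10:84473044-84473343, - strand): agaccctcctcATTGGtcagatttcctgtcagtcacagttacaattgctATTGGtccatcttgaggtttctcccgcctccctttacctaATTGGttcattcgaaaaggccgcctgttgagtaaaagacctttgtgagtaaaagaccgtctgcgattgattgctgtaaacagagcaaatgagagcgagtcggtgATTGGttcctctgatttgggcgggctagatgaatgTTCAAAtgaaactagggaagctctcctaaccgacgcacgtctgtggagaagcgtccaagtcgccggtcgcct
Top2b (GRCr8 chr15:11542415-11542714, - strand): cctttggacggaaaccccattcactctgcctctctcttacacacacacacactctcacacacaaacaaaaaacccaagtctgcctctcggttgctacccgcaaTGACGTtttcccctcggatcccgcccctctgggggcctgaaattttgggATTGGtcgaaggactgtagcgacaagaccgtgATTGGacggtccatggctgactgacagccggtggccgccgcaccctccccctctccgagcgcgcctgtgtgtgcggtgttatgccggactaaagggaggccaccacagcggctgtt
Top1 (GRCr8 chr3:169712945-169713244, + strand): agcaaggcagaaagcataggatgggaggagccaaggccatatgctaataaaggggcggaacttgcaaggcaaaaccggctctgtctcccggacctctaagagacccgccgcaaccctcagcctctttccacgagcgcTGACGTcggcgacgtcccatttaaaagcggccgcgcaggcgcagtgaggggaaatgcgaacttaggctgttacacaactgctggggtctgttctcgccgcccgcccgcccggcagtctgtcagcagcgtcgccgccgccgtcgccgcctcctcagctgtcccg
Rfc1 (GRCr8 chr14:43319748-43320047, + strand): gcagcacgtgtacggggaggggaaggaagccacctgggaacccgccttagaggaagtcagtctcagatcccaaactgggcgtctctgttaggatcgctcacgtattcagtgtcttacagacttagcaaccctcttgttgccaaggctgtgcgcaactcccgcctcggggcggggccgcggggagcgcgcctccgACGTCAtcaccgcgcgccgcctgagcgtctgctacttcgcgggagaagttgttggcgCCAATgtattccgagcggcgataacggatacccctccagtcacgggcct

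The Top2a promoter holds 4 CCAAT boxes, all read on the other strand, and a CHR element that begins 22 bases before the start. Of 33469 promoters of this length, 37.5% hold at least 1 CCAAT box, 0.675% hold at least 4, and 18.3% hold the CHR letters. Top2b has 2 CCAAT boxes (11.2% of promoters have at least 2), and Rfc1 has 1, just after the start. The core of the cAMP response element was found in Top1, Top2b and Rfc1, against 7.94% of all promoters. The full element TGACGTCA, which contains the core, was in none of the 7 (1.83% of all promoters). The windows of Top1, Top2b and Rfc1 were 58.7% to 63% G and C, against 48.7% to 55.3% for the others. The share over all promoters was not matched for this. A GC box (GGGCGG on either strand, not capitalised) lies in all 4 promoters shown and in 33.1% of all promoters. The letters TTTCCCGC, TTTCGCGC, TTTGCCGC and TTTGGCGC of the E2F site were in none of the 7 windows and in 2.14% of all. The promoters of Top3a, Top3b and Numa1 held none of the letters searched. These matches are descriptions of the letters in these windows, and binding was not measured.

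The total count per sample lay between 38428926 and 47759013, at which 3 counts correspond to between 0.0628 and 0.0781 CPM (the count per 1e+06 counts). CPM values were scaled with TMM factors, except those for 3 counts and for the cell type markers in this paragraph, which used the total count alone. The silencing was seen in the target: Tbk1 was at 53.7 and 52.5 CPM in the siScramble samples and at 11.8 and 13.3 CPM in the siTbk1 samples, a log2 fold change of -2.08 ± 0.076 (SE). The 10 β-cell markers examined were found in every library, with a summed level of 24780 and 25584 CPM in siScramble and 22629 and 20808 CPM in siTbk1 samples. Of 13 markers of other islet, exocrine, duct, blood, vessel and fibroblast cells, the α-cell hormone gene Gcg was measured, at 1406 and 1341 CPM in siScramble and 803 and 862 CPM in siTbk1 samples. The other 12 were not among the 15172 genes listed, so their levels are not known. The part of these markers in the changes below was not tested.

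**Figure D1:**
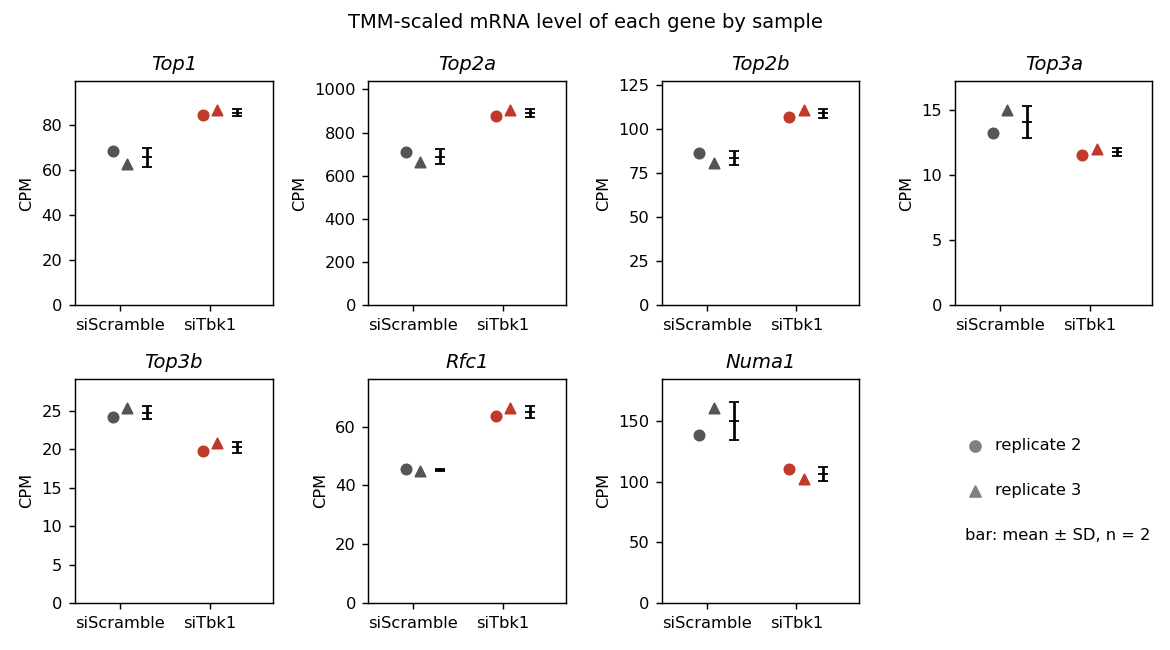
TMM-scaled level in CPM (vertical axes, from 0) of each of the 7 genes in the siScramble (grey) and siTbk1 (red) samples, with circles for replicate 2, triangles for replicate 3 and bars for the mean ± SD of 2 samples. For each gene the groups do not overlap, with Top1, Top2a, Top2b and Rfc1 higher and Top3a, Top3b and Numa1 lower in both siTbk1 samples.

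Top1 is listed on chromosome 3 from 156642464 to 156717687 (plus strand, rn6). Its level was 68.6 and 62.8 CPM in siScramble replicates 2 and 3 and 84.6 and 86.6 CPM in siTbk1 replicates 2 and 3. Both siTbk1 samples lay above both controls, and the siTbk1 samples were closer to each other than the controls were. The log2 fold change was 0.38 ± 0.061 (SE) with an edgeR adjusted p of 0.00034. The estimated counts of Top1 lay up to 0.45 away from a whole number, against 2488 to 3980 counts per library. Those of Top2a lay up to 0.3, of Numa1 up to 0.27, and of Top2b and Rfc1 up to 0.01 away. Any reads divided between these genes and other features cannot be told from these counts.

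Top2a, the proliferation-linked type II enzyme, is listed on chromosome 10 from 86901007 to 86932155 (minus strand, rn6). It was measured at 712 and 664 CPM in siScramble and at 879 and 903 CPM in siTbk1 samples, from 26313 to 41351 counts per library. The controls differed by less than the step between the groups. The log2 fold change was 0.37 ± 0.054 (SE) with an edgeR adjusted p of 0.00016. In bulk RNA, a larger share of cells that make Top2a and more Top2a mRNA per cell cannot be told apart.

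Top2b, its paralog, is listed on chromosome 15 from 10262651 to 10320234 (minus strand, rn6), where the table gives its biotype as processed transcript. Its level was 86.2 and 80.9 CPM in siScramble and 107 and 111 CPM in siTbk1 samples. Its log2 fold change was 0.38 ± 0.058 (SE) with an edgeR adjusted p of 0.00021.

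Ratios of counts taken within a library do not depend on library scaling. With 2 samples a group, the exact permutation test used for the ratios cannot reach a p under 0.05, so the ratios are given as values. The count of Top2a was 8.26 and 8.21 times that of Top2b in siScramble and 8.21 and 8.16 times in siTbk1 samples, with no correction for transcript length. On the log2 scale this ratio changed by -0.0089, against an SD of 0.0053 in siScramble and 0.0058 in siTbk1 samples (two-sided exact permutation test, p = 0.33, adjusted p = 1 over 3 ratios, where 0.33 is the smallest p that 2 against 2 samples allow). The log2 ratio of Top1 to Top2b was -0.33 and -0.36 in siScramble and -0.34 and -0.35 in siTbk1 samples, a difference of -0.00053 (exact permutation test, p = 1). The log2 ratio of Top3a to Top3b was -0.88 and -0.76 in siScramble and -0.77 and -0.80 in siTbk1 samples, a difference of 0.035 against an SD of 0.079 in siScramble and 0.015 in siTbk1 samples (exact permutation test, p = 1).

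The type IA genes moved the other way. Top3b, listed on chromosome 11 from 88346313 to 88374680 (minus strand, rn6), was at 24.2 and 25.4 CPM in siScramble and at 19.7 and 20.8 CPM in siTbk1 samples. Its log2 fold change was -0.29 ± 0.074 (SE) with an edgeR adjusted p of 0.0061, and the groups did not overlap. Top3a, listed on chromosome 10 from 46981958 to 47018538 (minus strand, rn6), had the lowest counts of the 7 genes, at 452 to 633 counts per library. It was at 13.2 and 14.9 CPM in siScramble and at 11.5 and 12.0 CPM in siTbk1 samples, and siScramble replicate 3 stood above the other 3 samples. Its log2 fold change was -0.26 ± 0.094 (SE) with an edgeR adjusted p of 0.039. The call for Top3a was lost in DESeq2 (adjusted p = 0.11) and when siScramble replicate 3 was left out (log2 fold change -0.17, edgeR adjusted p = 0.29), and also without either siTbk1 sample.

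Rfc1 showed the largest increase of the 7 genes. It is listed on chromosome 14 from 44580216 to 44702204 (plus strand, rn6) and was at 45.5 and 44.9 CPM in siScramble and at 63.6 and 66.3 CPM in siTbk1 samples. The controls were almost equal, and the gap to the siTbk1 samples was many times their spread. The log2 fold change was 0.52 ± 0.059 (SE) with an edgeR adjusted p of 3.5e-05. A gene on the opposite strand, AABR07015003.1, overlaps its listed span but had 67 to 116 counts per library against 1778 to 2993 for Rfc1.

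Numa1 showed the largest decrease. It is listed on chromosome 1 from 167051209 to 167091454 (plus strand, rn6) and was at 139 and 161 CPM in siScramble and at 111 and 103 CPM in siTbk1 samples. The controls were farther apart than those of the other 6 genes on the log2 scale, yet both lay above both siTbk1 samples. The log2 fold change was -0.49 ± 0.071 (SE) with an edgeR adjusted p of 0.00016. Without siScramble replicate 2 it was -0.59, just past the 1.5-fold limit, and without siScramble replicate 3 it was -0.38. A listed gene of the same strand, LOC691427, covers Numa1 with a listed span from 141218095 to 183763665 and had 349 to 395 counts per library against 3869 to 6663 for Numa1. That span is implausibly long for a gene, so the overlap may be an error of the listed positions.

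For each of the 7 genes the 2 groups did not overlap, in a table in which 38.7% of the tested genes had both siTbk1 samples above both controls and 37.9% had both below. Among the log2 fold changes of all 13953 tested genes, Rfc1 ranked at percentile 92.0, Top2b at 85.9, Top1 at 85.8 and Top2a at 85.3, and Top3a ranked at percentile 25.5, Top3b at 22.8 and Numa1 at 10.9.

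**Figure D2:**
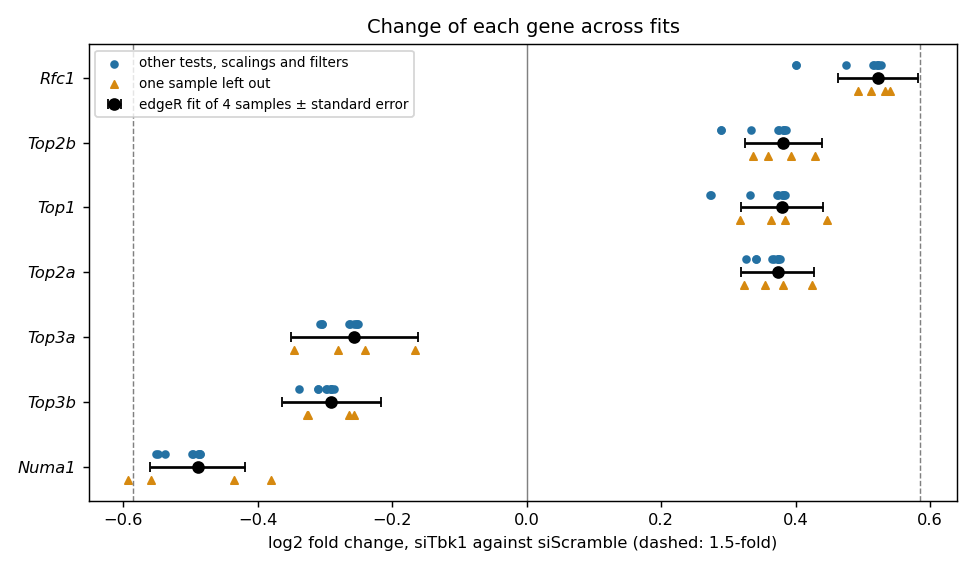
Log2 fold change of siTbk1 against siScramble (horizontal axis) for each of the 7 genes, with the edgeR fit of all 4 samples and its standard error (black), 9 other tests, scalings, filters and corrections (blue) and the 4 fits that each leave out 1 sample (orange). No gene changes sign, Numa1 crosses the dashed 1.5-fold line in 1 fit (-0.59), and Rfc1 lies between 0.40 and 0.54.

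Across all tested genes, the change varied with the genomic span that the table lists for a gene, which includes introns. Spans were used as listed, including a few of implausible length in the longest class. The median log2 fold change was -0.13 for genes of 2.14 to 5.07 kb and 0.12 for genes of 65.5 to 118 kb. The 4 genes that rose cover 31.1 kb (Top2a), 57.6 kb (Top2b), 75.2 kb (Top1) and 122 kb (Rfc1), and genes of a like span, taken in 10 size classes of equal number, had median log2 fold changes of 0.055, 0.093, 0.12 and 0.11. Top3a (36.6 kb) and Numa1 (40.2 kb) fell although they share the size class of Top2a, in which 29.5% of genes were higher and 21.5% lower. With the trend along span removed from each library, the log2 fold change was 0.34 for Top2a, 0.29 for Top2b, 0.27 for Top1 and 0.40 for Rfc1, with the largest edgeR adjusted p at 0.0034. The 3 decreases were larger after this correction, at -0.31 for Top3a, -0.31 for Top3b and -0.55 for Numa1.

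**Figure D3:**
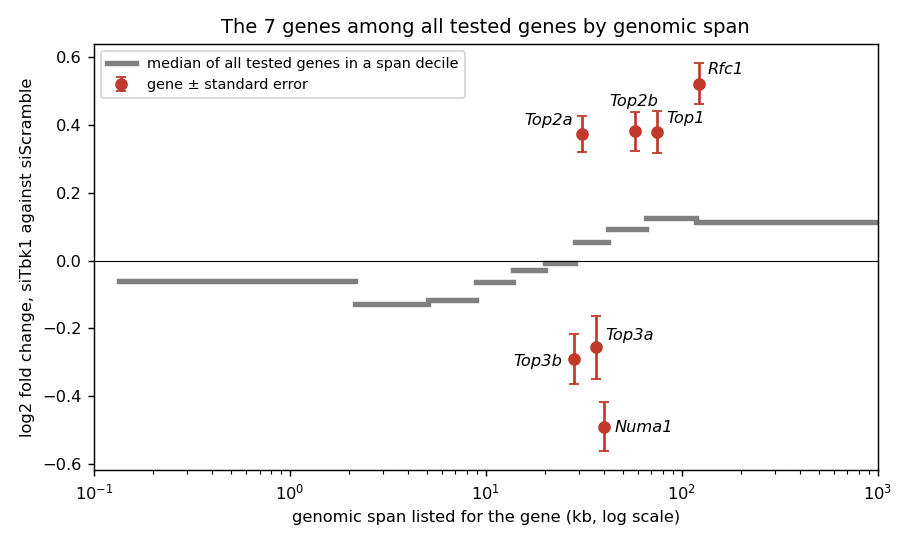
Log2 fold change of siTbk1 against siScramble (vertical axis) against the genomic span listed for a gene in kb (horizontal axis, log scale), with grey bars for the median of all tested genes in each of 10 size classes and red points for the 7 genes ± standard error. The 4 genes that rose lie above the median of their class and Top3a, Top3b and Numa1 below it.

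Genes that work with the 7 proteins were examined in lists written down by function, with earlier results of these data known. In the list of topoisomerase relatives and partners, 23 genes were tested, of which 8 rose, 3 fell and 12 did not pass, with a median log2 fold change of 0.12 against 0.0071 over all tested genes. This is 34.8% higher and 13.0% lower, where all tested genes gave 24.4% and 24.8%. Top1mt, the mitochondrial relative of Top1, fell (log2 fold change -0.28, edgeR adjusted p = 0.014), at 16.4 and 15.98 CPM in siScramble and 13.5 and 13.2 CPM in siTbk1 samples, while nuclear Top1 rose. Of the partners of TOP3A, Rmi1 rose (log2 fold change 0.36) and the helicase gene Blm rose (0.24), whereas Top3a itself was lower. Rmi2 had only 5 to 13 counts per library, and Tdrd3, the partner of TOP3B, did not pass (0.10 on the log2 scale, edgeR adjusted p = 0.55).

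The enzymes that free DNA from trapped topoisomerases did not pass, with log2 fold changes of -0.16 for Tdp1 and 0.21 for Tdp2, nor did the checkpoint gene Topbp1 (0.14). The RecQ helicase gene Wrn rose (0.50, edgeR adjusted p = 8.2e-05), from 31.5 and 29.4 to 43.5 and 42.9 CPM, and its estimated counts were not all whole. The single-strand break repair gene Xrcc1 fell (-0.53, edgeR adjusted p = 0.00051), from 23.5 and 26.8 to 18.5 and 16.2 CPM.

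Of the 13 genes for clamp loaders, the clamp and its checkpoint relatives, 6 rose, 2 fell and 5 did not pass. The median log2 fold change was 0.11. The shares were 46.2% higher and 15.4% lower, against 24.4% and 24.8% of all tested genes. When libraries were scaled by size alone, 4 rose and 4 fell. The small subunits that share a complex with RFC1 did not move as a unit. Rfc4 rose (log2 fold change 0.59, edgeR adjusted p = 5.2e-05), from 55.7 and 54.3 to 76.9 and 88.9 CPM, and its estimated counts were not all whole. Rfc3 fell (log2 fold change -0.28, edgeR adjusted p = 0.0025), from 70.1 and 72.2 to 60.9 and 55.9 CPM. Rfc2 (-0.13) and Rfc5 (0.11) did not pass. Among the large subunits of the alternative loaders, Atad5, which unloads PCNA, rose (0.54) and Rad17 of the checkpoint loader rose (0.21), while Chtf18 of the cohesion loader fell (-0.50). Pcna itself rose by 0.16 (edgeR adjusted p = 0.035).

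Of the 26 spindle pole and cortical partners of Numa1, 7 rose, 8 fell and 11 did not pass, and the median log2 fold change was -0.039. The shares of 26.9% higher and 30.8% lower are near those of all tested genes, 24.4% and 24.8%. The largest decrease was that of Dctn1, the dynactin subunit that links dynein to its cargo, with a log2 fold change of -0.82 (edgeR adjusted p = 4.7e-06) and levels of 271 and 311 CPM in siScramble and 172 and 158 CPM in siTbk1 samples. Gpsm1 also fell (-0.40). Gpsm2, which ties NUMA1 to the cortex, did not pass (0.13), nor did the dynein heavy chain gene Dync1h1 (-0.092). The mitotic kinase gene Plk1 fell (-0.17, edgeR adjusted p = 0.033) and Aurka did not pass (-0.076), whereas the spindle assembly gene Tpx2 (0.24), the kinesin gene Kif11 (0.38) and the dynein regulator gene Nde1 (0.65) rose.

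Of 19 genes expressed in S, G2 or M phase, 14 rose, 1 fell and 4 did not pass, with a median log2 fold change of 0.30. The shares were 73.7% higher and 5.26% lower, against 24.4% and 24.8% of all tested genes. Mki67, the gene of the proliferation marker Ki67, rose from 535 and 518 to 688 and 735 CPM (log2 fold change 0.43), Ccna2 (cyclin A) by 0.40 and Cdk1 by 0.14, where Cdk1 passed narrowly (edgeR adjusted p = 0.049). The largest increases were those of the kinetochore gene Cenpf (0.63) and the kinase gene Aurkb (0.47), and Birc5 fell (-0.25). The products of the 18 condensin and cohesin genes fold and hold the chromosomes that TOP2A untangles. Of these genes, 15 rose (83.3%), 1 fell (5.56%) and 2 did not pass, with a median log2 fold change of 0.24. The lists were not matched to all tested genes by genomic span or by expression level, on which passing the test also depends. The cohesin genes Stag1 (0.49) and, narrowly, Stag2 (0.46) led. Several condensin genes also rose, and the condensin gene Ncaph2 fell (-0.28).

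**Figure D4:**
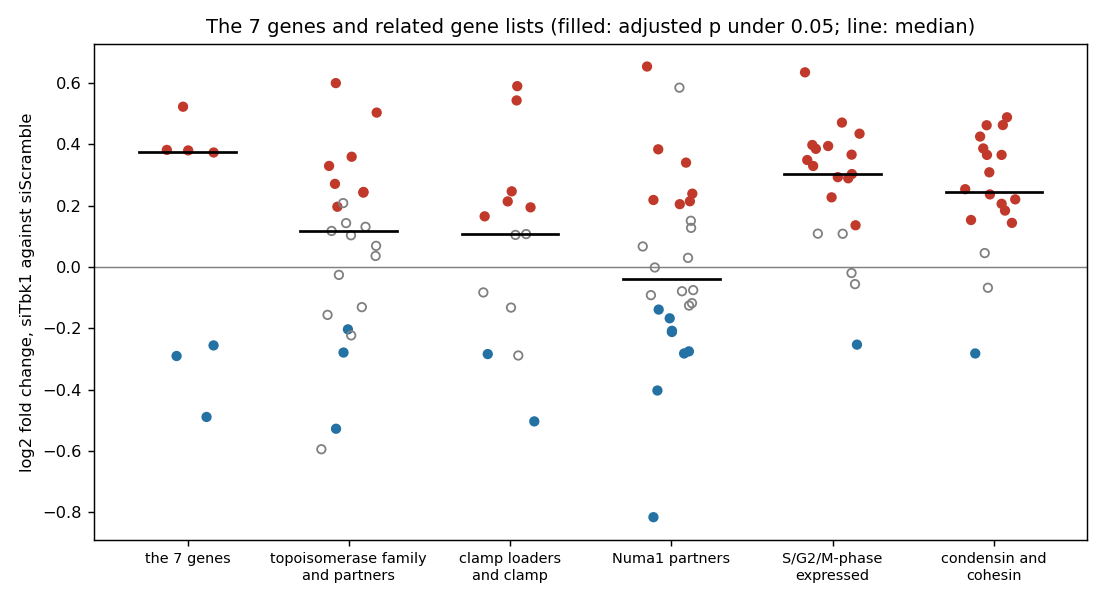
Log2 fold change of siTbk1 against siScramble (vertical axis) for the 7 genes and the 5 related lists, 1 point a gene, filled red (higher) or blue (lower) at an adjusted p under 0.05 and open otherwise, with a black line at each median. The medians of the 5 related lists run from -0.039 for the Numa1 partners to 0.30 for genes expressed in S, G2 or M phase. That of the 7 genes is 0.37, and they form an upper group of 4 and a lower group of 3.

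The genes whose 4 values ran most like each of the 7 were found by the distance between log2 CPM profiles, each centred on its mean over the 4 samples, among 9346 genes at 10 CPM or more. The nearest to Top1 were Clpx and Ccng1, to Top2a Sept7 and Pik3ca, and to Top2b Slc41a2 and Sept7. The nearest to Rfc1 were Kdelc2 and Med14, to Numa1 Tmem151a and Clk2, to Top3a Prcc and Thap4, and to Top3b LOC100911356 and Tanc2. Top2b ranked 4th in closeness to Top2a, at a distance of 0.012 on the log2 scale, Top2a ranked 17th to Top1 and Top3b ranked 95th to Top3a. Rfc1 was less close to the other genes that rose, at a distance of 0.16 to Top1, 0.16 to Top2a and 0.15 to Top2b. Among the 9346 genes, Rfc1 ranked 1472nd to Top1, 1562nd to Top2a and 1386th to Top2b. Numa1 lay at 0.26 from both Top3a and Top3b, ranking 3003rd and 3013th. With only 4 libraries in 2 groups, many genes share such a profile.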

How the data were processed

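RNA was sequenced from 2 siScramble-treated and 2 siTbk1-treated INS-1 832/13 samples as stranded libraries of polyadenylated RNA. The deposited values are estimated counts per gene that the authors did not scale between samples and that are partly fractional, and their processing notes name STAR 2.6.1d, Partek and the build rn6, while the annotation and the counting step are not given in the sources used here. Counts were rounded, filterByExpr (edgeR 4.0.16, minimum count 10) kept 13953 of 15172 genes, and libraries were scaled with TMM factors. The quasi-likelihood test of edgeR (treatment as the only factor) was run on all remaining genes with Benjamini-Hochberg adjustment. A gene passed at an adjusted p under 0.05, and the 1.5-fold limit is the one named by the study. Standard errors are the size of the log2 fold change divided by the square root of F. R 4.3.3, limma 3.58.1, DESeq2 1.42.0, SciPy 1.17.1 and matplotlib 3.10.9 were used, and the scripts were tested on simulated data. Alternatives were a replicate block, DESeq2, limma-voom, glmTreat, other scalings, no filter, a correction for genomic span (loess, span 0.5) and leaving out each sample. The 7 genes and the related lists were chosen with earlier results of these data known. Genes were named by rule: the 7 genes, Tbk1, their direct partners, the up to 2 largest changes of each list in each direction, and the 2 nearest profiles. A gene that this rule names is not reported here. Counts were called not whole at more than 0.01 from a whole number, which held for 25.8% of the 15172 genes. Besides Wrn and Rfc4, this held for Rfc5, Gpsm1, Dctn1, Dync1h1, Nde1, Tpx2, Ccna2, Cdk1, Aurkb, Stag1, Stag2 and Ncaph2 among the named list genes. The order of levels between genes is not given, as transcript lengths were not used.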

Additional observations from a re-analysis of the deposited data

How the results depend on the processing

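Across the 9 alternatives with all 4 samples and the 4 fits that each left out 1 sample, the log2 fold changes of Top1, Top2a, Top2b, Top3b, Rfc1 and Numa1 kept their direction and stayed past the threshold. Top3a kept its direction but missed the threshold in DESeq2 (-0.26, adjusted p = 0.11) and with the replicate block (-0.25, adjusted p = 0.053, edgeR), and ranged from -0.35 to -0.17 with a sample left out, where it passed in 1 of 4 fits. The number of the 7 genes lower by at least 1.5-fold was 0 in all fits of 4 samples and 0 to 1 with a sample left out (Numa1, without siScramble replicate 2). With the replicate block the count of the 7 genes that fell was 2 in place of 3, and the count of the Numa1 partners that fell was 5 in place of 8. Library size alone gave 4 clamp loader and clamp genes lower in place of 2 and 4 higher in place of 6, and the replicate block and DESeq2 also gave 4 higher. No label says that the replicate numbers pair the samples, and the data gave no uniform answer. Between samples sharing a number, the departures from each group's average gave Pearson's r = 0.0041 and Spearman's rho = -0.20 across 13953 genes, which are not independent, and -0.39 and -0.43 across the 7945 more abundant ones (average log2 CPM of 4 or higher), whereas the second principal component (13.9% of the variance) and the total counts separated the samples by number. With the numbers crossed, added after the data were examined, 4 of the 7 genes were higher and 3 lower. Where a sample was left out, the lone sample of its group was assumed to vary like the other group. Leaving out a sample changed the sign of the difference in the log2 ratio of Top3a to Top3b, from 0.035 to -0.021 without siScramble replicate 2, and took that of Top1 to Top2b from -0.00053 to between -0.019 and 0.018.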

Other observations

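The step between the groups was larger between the samples numbered 3 than between those numbered 2 for 6 of the 7 genes, as for 81.5% of the 6864 genes that passed the test in either direction. For Numa1 the log2 ratio was -0.33 between the samples numbered 2 and -0.65 between those numbered 3, and for Top1 it was 0.30 and 0.46. Top3b was the exception, with -0.29 in both. This pattern was noticed after the data were examined, the numbers are not known to mark shared cultures, and its cause was not tested.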
